A study of Micromonas commoda with 15 samples.

Results

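Of 10300 gene models counted in the marine green picoalga Micromonas commoda, 35 met level conditions and stayed near control level in 4 exposures. The exposures were Fe2O3 particles, FeCl3, ZnO particles and ZnSO4, each compared with unexposed cultures. The 35 models were chosen on measured values. Counts were scaled to library size as CPM, with TMM factors that correct for composition, and averaged within each group. L is the log2 ratio of an exposed group's mean CPM to the control mean, each with 0.5 CPM added. A model was taken if its control mean was below 1000 CPM, the mean of the 5 group means was at least 20 CPM, and L stayed within 0.2 of 0 in all 4 exposures. The level conditions alone left 4744 models, and 0.738% of these were stable in this sense. Of 5320 models left out for a mean below 20 CPM, 234 also had L within 0.2 of 0 in all 4 exposures. Every value of L and every comparison with control below therefore describes the choice and is no evidence for it.

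The series profiled poly(A)-selected RNA of strain Noum17/RCC299, grown in L1 medium at 20 °C with 12 h of light a day. Each of 5 groups had 3 libraries: control cultures with no added metal, Fe2O3 particles (labelled 3e-05 M and 2.4 mg/L iron), FeCl3, ZnO particles (labelled 1e-05 M and 0.8 mg/L zinc) and ZnSO4, the salts at the equivalent metal concentration. Particles or salts were added to 140 mL flasks 24 h after these were prepared in early exponential growth, and cells were collected 48 h later. The labels do not state whether replicates came from separate flasks, so p-values measure the spread between these libraries, which may be technical. With the mass read as metal, as labelled, mass and molarity do not match. They match if the mass is that of the oxide and the molarity that of the metal. Iron and zinc were dosed differently, so comparisons between metals are not matched for dose.

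Micromonas belongs to the smallest free-living green algae, with a compact genome, and iron and zinc are both cofactors of its enzymes, iron above all in photosynthetic electron transport. Transcripts that hold their level across conditions serve as internal references, to which other transcripts are compared in quantitative PCR. In sequencing, a level is always a share of the library. A transcript is therefore stable only relative to the scaling used, and RNA per cell and number of cells cannot be told apart. The files pair the identifiers with no gene name and 0 of 10300 matched the RefSeq table at hand, so functions of the 35 models are not described. Printed identifiers are limited to 4: those with the lowest coefficient of variation (CV, the SD over the 15 libraries as a percentage of the mean), a pair whose average L was above 0 and a pair below 0.

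Total counts ran from 33473041 to 48969454 per library. The 35 models had between 518 and 8365 counts in any library. At each model's mean count over the 15 libraries, the counting error alone gave a CV of 1.22% to 3.42%. None of them carried the files' mark for a duplicate model or shared an identifier with another row, and all 35 passed the filter on low counts.

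The steadiest of the 35 models was wlab.247952.1, with a CV of 5.98% over the 15 libraries. Its level was 75.7, 67.3 and 60.4 CPM in the control libraries, 68.8, 62.1 and 64.3 CPM with Fe2O3 particles, and 72.4, 67.1 and 66.3 CPM with FeCl3. It was 71, 69 and 63.6 CPM with ZnO particles and 66.9, 70.6 and 65.3 CPM with ZnSO4. The highest and the lowest library were both controls, and every exposed library lay between them. Group means ran from 65 ± 3.4 CPM with Fe2O3 particles to 68.6 ± 3.3 CPM with FeCl3 (SD, n = 3 each), against 67.8 ± 7.63 CPM in controls. Its L was -0.06 with Fe2O3 particles, 0.016 with FeCl3, 0.001 with ZnO particles and -0.0042 with ZnSO4.

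The model wlab.234871.1 was more abundant and varied as little, with a CV of 6.18%. It had 101, 89.8 and 96.6 CPM in controls, 100.1, 103 and 94.1 CPM with Fe2O3 particles, and 85.1, 92.7 and 97 CPM with FeCl3. With ZnO particles it had 94.5, 98.7 and 85.7 CPM and with ZnSO4 90.1, 101 and 86.9 CPM. All 5 groups overlapped. The highest library was only 1.21 times the lowest, and L ran from -0.062 with FeCl3 to 0.05 with Fe2O3 particles.

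The models whose average L was above 0 lay closer to the bound. The model wlab.235532.1 was the least abundant of the 35, with a mean of 20 CPM and a CV of 6.99%. Its libraries held 18.3, 19.3 and 18.7 CPM in controls and 18, 19.5 and 20 CPM with Fe2O3 particles. They held 19.1, 21.8 and 21.1 CPM with FeCl3, 22, 21.9 and 20.5 CPM with ZnO particles, and 19.7, 21.8 and 18.6 CPM with ZnSO4. The libraries with ZnO particles lay above all controls, with an L of 0.19, and the quasi-likelihood test of edgeR gave a log2 fold change of 0.19 (SE 0.10, adjusted p = 0.114). The other 3 groups overlapped the controls.

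The model wlab.239191.1 had a CV of 7.89%. It was at 32.5, 37 and 32.3 CPM in controls, 38.3, 34.9 and 38.1 CPM with Fe2O3 particles, and 33.7, 37.5 and 31.1 CPM with FeCl3. It was at 37.6, 39.5 and 36.5 CPM with ZnO particles and 41.5, 37.3 and 36 CPM with ZnSO4. At least 1 control library reached into the range of each exposed group. Its L was lowest with FeCl3, at 0.0069, and highest with ZnSO4, at 0.17.

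**Figure D1:**
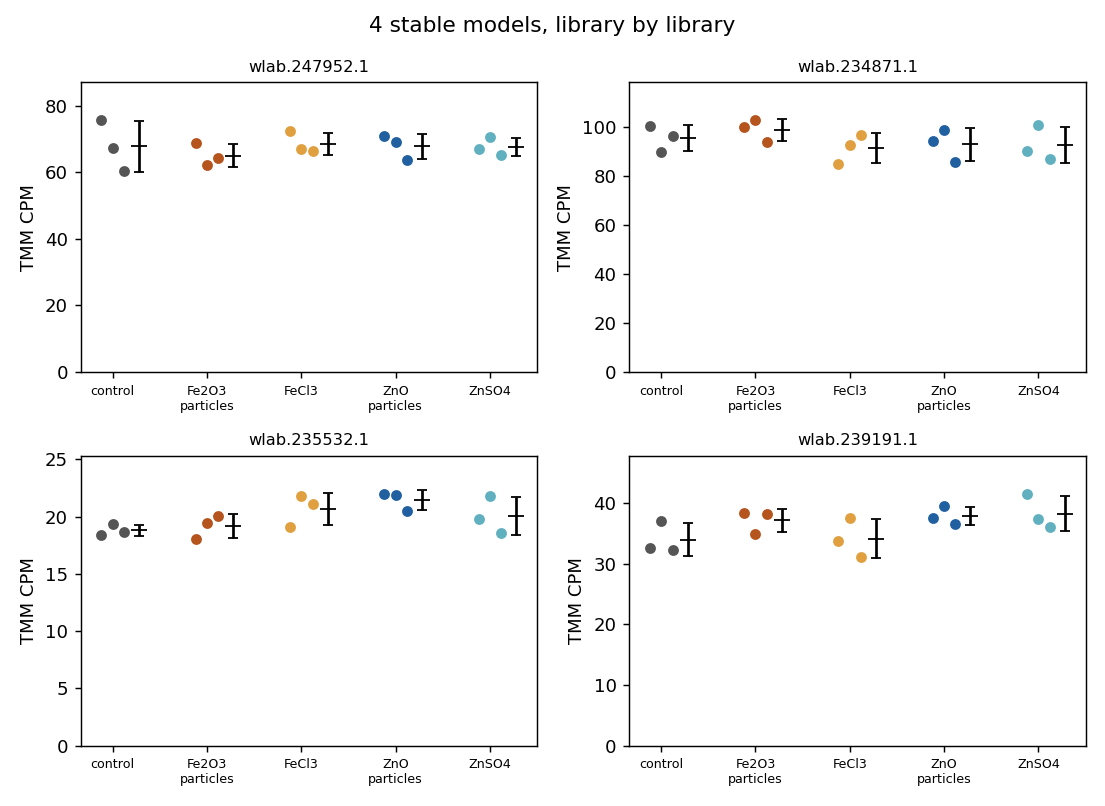
TMM-scaled CPM (vertical axes, from 0) of the 4 printed models in the 3 libraries of each group (points), with the group mean and SD beside them (bars). The libraries of wlab.247952.1 lie between 60.4 and 75.7 CPM, and for wlab.235532.1 the ZnO particle libraries lie above the controls.

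Over all 35 models the mean level ran from 20 to 159 CPM with a median of 37.4, against a median of 62 CPM over the 4744 models that met the level conditions. Between 20 and 50 CPM 20 of 1986 such models were stable, or 1.01%, and between 50 and 100 CPM 14 of 1126, or 1.24%. Between 100 and 200 CPM it was 1 of 792, or 0.126%, and from 200 CPM up 0 of 840. Of the 236 models excluded for a control mean of 1000 CPM or more, 0 had L within the bound in all 4 exposures. The scarcity at high levels held with DESeq2 size factors, where 0 of 41 stable models reached 200 CPM. With total counts only 7 of 53 did, beside 17.7% of the 4744 models at that level under TMM. The scarcity was also less complete with L centred on the median model (4 of 57) and with upper-quartile factors (5 of 72). The same held without Fe2O3 particles replicate 3 (8 of 73), FeCl3 replicate 1 (7 of 78), ZnSO4 replicate 3 (7 of 60) or control replicate 1 (3 of 40).

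The most abundant stable model, with a mean of 159 CPM, also had a wider spread. Its control libraries held 165, 136 and 184 CPM, those with Fe2O3 particles 192, 176 and 169 CPM, and those with FeCl3 159.5, 122 and 155 CPM. With ZnO particles it had 168, 147 and 154 CPM and with ZnSO4 167, 144.4 and 144.1 CPM. Its L was 0.15 with Fe2O3 particles and -0.15 with FeCl3, and nearer to 0 in the zinc exposures.

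Spread over the libraries was low in the 35 models, which the choice by group means favours. Their CV had a median of 10.1% and ran up to 17%, against a median of 31% over the 4744 models. Their SD of log2 CPM within groups, which the rule did not use directly, had a median of 0.13, against 0.19 over the 4744 models and 0.22 over the 10012 models tested. Steadiness of the group mean and of single libraries was not the same thing. Only 15 of the 35 were also among the 35 models of lowest CV, and 24 were among the lowest 100. The stable model with the highest CV ranked 459th of 4744.

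That model, with a mean of 67.8 CPM, met the rule despite its scatter, with L from -0.19 with Fe2O3 particles to 0.13 with ZnSO4. It was at 62.9, 65.9 and 77.1 CPM in controls, 52.9, 73.6 and 54.1 CPM with Fe2O3 particles, and 51.8, 76.9 and 89 CPM with FeCl3. It was at 52.4, 72.3 and 62.9 CPM with ZnO particles and 75.5, 80.8 and 68.6 CPM with ZnSO4. The highest and lowest library, which were both FeCl3 libraries, differed 1.72-fold. Across the 35 models the ratio of highest to lowest library ran from 1.21 to 1.77 with a median of 1.41, and it was under 1.5 in 24 of them.

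**Figure D2:**
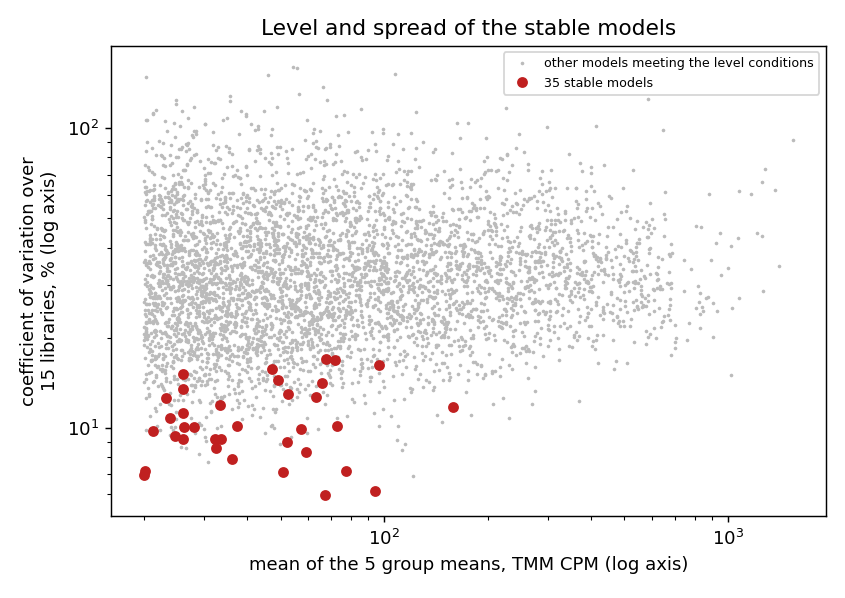
CV over the 15 libraries in percent (vertical, log axis) against the mean of the 5 group means in TMM CPM (horizontal, log axis), for the 35 stable models (red) and the other models that met the level conditions (grey). The stable models lie between 5.98% and 17% CV, and the most abundant is at 159 CPM.

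The 4 exposures did not restrict the choice equally. Among the 4744 models L was within the bound in 1207 with FeCl3 (25.4%), 897 with ZnO particles (18.9%), 744 with ZnSO4 (15.7%) and 648 with Fe2O3 particles (13.7%). In 2420 models, or 51%, it was within the bound in no exposure. A further 195 met it in 3 of 4 exposures, and of these 92 missed it with ZnSO4, 82 of them by being lower than in controls. FeCl3 was the exposure missed by 53, Fe2O3 particles by 36 and ZnO particles by 14. The median L of all 4744 models was -0.40 with ZnSO4, -0.24 with ZnO particles, -0.19 with Fe2O3 particles and -0.14 with FeCl3. The median of the 35 was -0.024, 0.001, -0.056 and -0.021 in the same order, so the gap between the 35 and the median model was widest with ZnSO4. These figures hold for the TMM factors used, which take Fe2O3 particles replicate 3 as reference library. With a control library as reference, L of the 4744 models rose by a median of 0.22 to 0.23 with ZnSO4. The shift was 0.055 to 0.093 with ZnO particles, -0.012 to 0.036 with Fe2O3 particles and -0.0011 to 0.033 with FeCl3. Misses per exposure were counted at the factors used only.

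Within the bound the 35 models leaned in different directions. Control was exceeded by 18 of them with ZnO particles, by 15 with FeCl3, by 15 with ZnSO4 and by 11 with Fe2O3 particles. L was below 0 in all 4 exposures for 5 models and above 0 in all 4 for 3. Over the 4744 models these shares were 42.3% and 13.5%. The widest departure from control was with FeCl3 in 13 models, with Fe2O3 particles in 12, and with ZnO particles and ZnSO4 in 5 each. Only 4 models kept L within 0.1 in all exposures, and 13 within 0.15.

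The bound cut through a continuum. The model nearest to it inside had a largest absolute L of 0.198, reached with Fe2O3 particles, and the model nearest outside had 0.2002, reached with ZnSO4. From 0.18 up to the bound lay 12 of the 35, and from the bound to 0.22 lay 14 models that were not taken.

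Fitted over all models, the 35 had small changes against control. In edgeR's quasi-likelihood test 0 of 35 were called with Fe2O3 particles, where 71.2% of all models tested were called, and 0 with FeCl3, where 43.9% were. It was also 0 with ZnO particles, with 63.8% of all models called, and 0 with ZnSO4, with 57.8%. At an unadjusted p under 0.05 the test again found 0 in each exposure. DESeq2 called 1 with ZnO particles, 2 with ZnSO4 and 0 in both iron exposures. At an unadjusted p under 0.05 it found 0 with Fe2O3 particles, 1 with FeCl3 and 2 in each zinc exposure. With any 1 library left out edgeR called 0 to 2 with Fe2O3 particles, 0 with FeCl3, 0 to 3 with ZnO particles and 0 to 7 with ZnSO4, the 7 being without Fe2O3 particles replicate 3. These counts follow from the choice. The median SE of the log2 fold change was 0.12 in each exposure, and 95% intervals extended a median of 0.26 to either side. All 4 intervals lay within 0.5 of 0 in 30 of the 35 models and within 1 of 0 in all 35. The intervals are centred on differences that the rule had bounded. Their closeness to 0 therefore follows largely from the choice and is no separate evidence of stability. Libraries of the exposed group and the controls did not overlap in 2 models with Fe2O3 particles, 4 with FeCl3, 3 with ZnO particles and 2 with ZnSO4. Over all models tested these shares were 68.2%, 47.6%, 68.8% and 59.7%.

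Some of the 35 differed between exposures although each exposure stayed near control. The rule bounds these differences as well, since it compares both arms with the same controls. In edgeR's quasi-likelihood test Fe2O3 particles and FeCl3 differed in 4 of 35 models, where 55.3% of all models were called. ZnO particles and ZnSO4 differed in 1, with 43% of all models called, ZnO and Fe2O3 particles in 1, with 19.2%, and ZnSO4 and FeCl3 in 2, with 53.1%. Together these were 7 models, where 79.7% of all models were called in at least 1 of the 4 comparisons. DESeq2 called 6, 0, 2 and 3, and with any 1 library left out edgeR called 1 to 5, 0 to 2, 0 to 2 and 1 to 8. Tested over all 5 groups at once, 2 of 35 differed, against 88.2% of all models.

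The model called in both comparisons of a particle with its salt had a mean of 63.5 CPM. It was at 71.6, 55.4 and 61.5 CPM in controls. With Fe2O3 particles it was at 74, 73.3 and 68.3 CPM and with ZnO particles at 72.1, 67.6 and 69.9 CPM. With FeCl3 it was at 56.2, 52.5 and 61 CPM and with ZnSO4 at 63.2, 54.9 and 50.9 CPM. Every particle library lay above every salt library, while the controls overlapped both. Fe2O3 particles exceeded FeCl3 by a log2 fold change of 0.35 (SE 0.12, adjusted p = 0.0191 by the edgeR test), and ZnO particles exceeded ZnSO4 by 0.32 (SE 0.12, adjusted p = 0.0395 by that test). The call for iron was lost without Fe2O3 particles replicate 1 or 2 or FeCl3 replicate 2, with a highest adjusted p of 0.0827 over the 15 edgeR fits that each leave out 1 library. The call for zinc was lost with DESeq2, with DESeq2 size factors and without any 1 of the 6 ZnO particle and ZnSO4 libraries, Fe2O3 particles replicate 3 or FeCl3 replicate 1. Its highest adjusted p in those edgeR fits was 0.395.

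A second model, with a mean of 26 CPM, was the one nearest inside the bound. It had 28.1, 25.5 and 22.3 CPM in controls, 24.7, 21.2 and 20.1 CPM with Fe2O3 particles, and 29, 29.5 and 27.8 CPM with FeCl3. The Fe2O3 particle libraries lay below those with FeCl3, and the controls overlapped both. Its log2 fold change between Fe2O3 particles and FeCl3 came to -0.38 (SE 0.11, adjusted p = 0.00996 by the edgeR test). The call was lost without Fe2O3 particles replicate 3, at an adjusted p of 0.0516 by that test.

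After TMM scaling, single libraries stood apart for the 35 models as a whole. The median deviation of the 35 from their own control means was -0.23 (log2) in Fe2O3 particles replicate 3, against 0.046 and 0.011 in the other Fe2O3 particle libraries. That library was the lowest of all 15 for 14 of the 35 models and the lowest of its group for 27. Lowest of their own groups were also ZnSO4 replicate 3 for 24, FeCl3 replicate 1 for 21 and ZnO particles replicate 3 for 20. Such counts were made for the 35 only, so whether other models share them is not shown. FeCl3 replicate 1 was the lowest of all for 8 models, with a median of -0.11, and ZnSO4 replicate 3 for 4, with a median of -0.11. In the other 12 libraries the median ran from -0.058 to 0.065. The order differed by share of all counts. There the 35 together were highest of their group in ZnSO4 replicate 3 (0.21%) and FeCl3 replicate 1 (0.17%). Fe2O3 particles replicate 3 (0.162%) lay between replicates 2 (0.161%) and 1 (0.17%). ZnO particles replicate 3 (0.179%) was still lowest of its group. The first 3 of these libraries had the highest TMM factors of their groups, 1.335, 1.07 and 1.06.

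**Figure D3:**
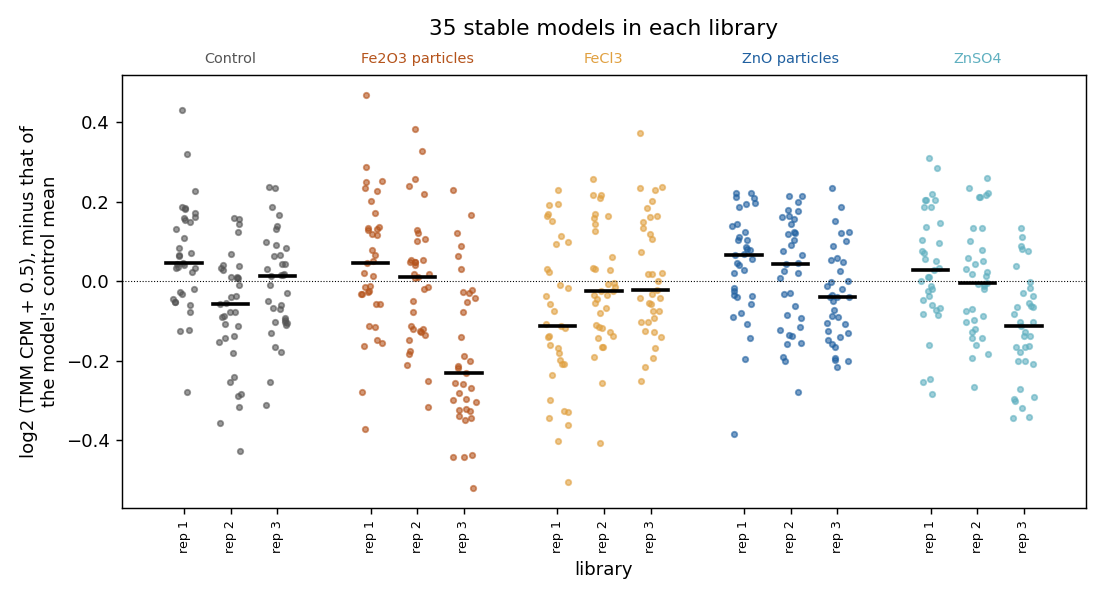
Each point is 1 of the 35 stable models in 1 library: log2 of TMM CPM plus 0.5, minus the same for its control mean (vertical axis); black bars are medians over the 35. The bar of Fe2O3 particles replicate 3 lies at -0.23, below all others.

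The stability of these models rested on the scaling. As a share of all deposited counts, the 35 together made up 0.128%, 0.15% and 0.145% of the control libraries. They made up 0.17%, 0.161% and 0.162% with Fe2O3 particles and 0.17%, 0.161% and 0.166% with FeCl3. With ZnO particles it was 0.191%, 0.185% and 0.179%, and with ZnSO4 0.194%, 0.2% and 0.21%. All exposed libraries thus lay above all controls, and the mean share with ZnSO4, 0.201% ± 0.00811 (SD, n = 3), was 1.43 times that of controls, 0.141% ± 0.0116. After TMM scaling the sums were 1694 ± 108 CPM with ZnSO4 and 1721 ± 109 CPM in controls, and all 5 groups overlapped. The TMM factors that make this difference had group means of 0.823 in controls and 1.19 with ZnSO4. With total counts as the only scaling all 35 models were above control in all 4 exposures, by a median L of 0.18 with Fe2O3 particles, 0.25 with FeCl3, 0.39 with ZnO particles and 0.50 with ZnSO4. The rule then picked 53 models, 0 of them among the 35.

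**Figure D4:**
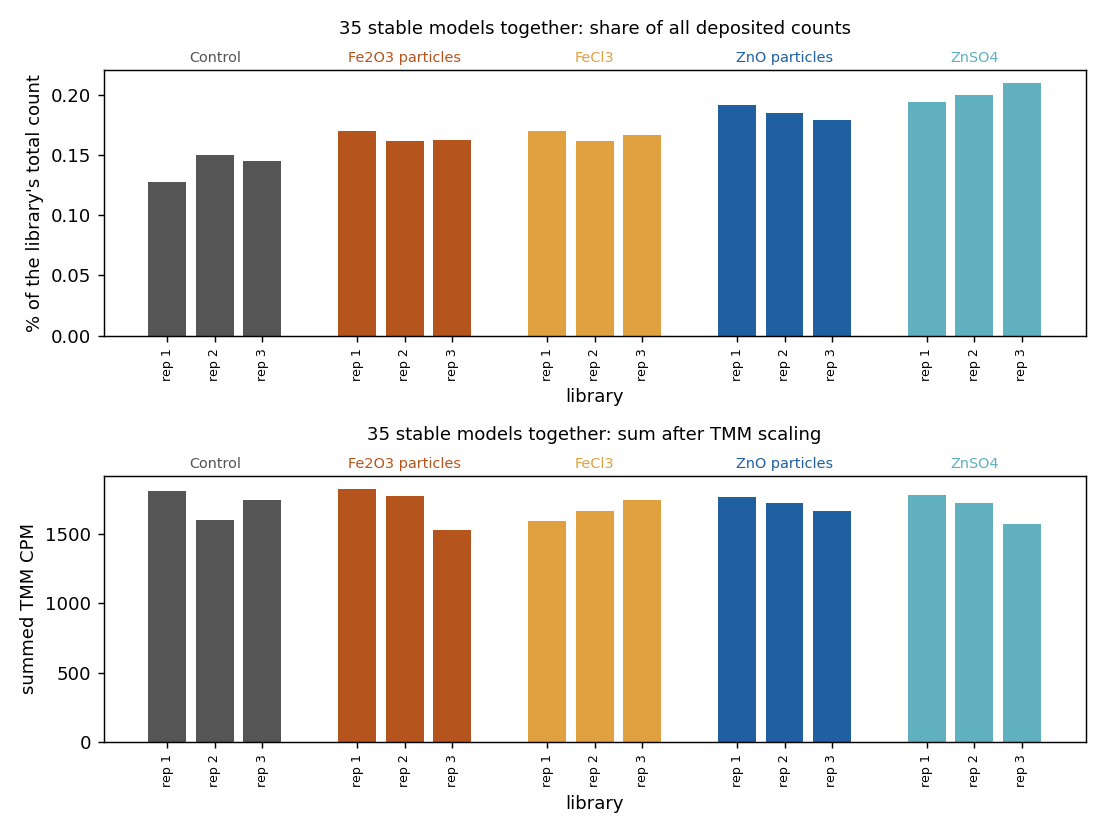
Sums over the 35 stable models in each library: percent of the library's total count (upper panel) and summed TMM-scaled CPM (lower panel), both from 0. The share rises from 0.128% in a control to 0.21% with ZnSO4, while the sums stay between 1530 and 1827 CPM.

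Within TMM itself the choice turned on the library taken as the reference, and also on single control libraries. edgeR picks the library whose upper quartile is nearest to the average, here Fe2O3 particles replicate 3. After the scaling that resulted, the 35 models stood lowest in that library. With the other Fe2O3 particle libraries as the reference 32 and 33 models met the rule, 31 and 32 of them among the 35. With a FeCl3 or ZnO particle library as the reference 34 to 51 models met it and 20 to 29 of the 35 stayed. With a control library it was 60 to 66 models and 16 or 17 of the 35, and with a ZnSO4 library 67 to 70 models and 1 to 3 of the 35. Compared with the chosen reference, ZnSO4 references moved L of the 4744 models by a median of 0.15 to 0.23 depending on the exposure, beside a bound of 0.2. Control references moved L with ZnSO4 by a median of 0.22 to 0.23. Leaving out Fe2O3 particles replicate 3, which also changes the reference, gave 73 models and 1 of the 35, while leaving it out at unchanged factors gave 33 models and 28 of the 35. The reference also changed, and the number rose to between 60 and 78, without FeCl3 replicate 1, ZnO particles replicate 1, ZnSO4 replicate 2 or ZnSO4 replicate 3. Without control replicate 1, 2 or 3 the reference stayed the same, yet only 20, 17 and 21 of the 35 met the rule. A single model, with a mean of 66 CPM, met the rule under all 15 references. None of the 4 printed models did.

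That model had 94, 58.8 and 56 CPM in controls, 68.9, 68.6 and 55.4 CPM with Fe2O3 particles, and 60.6, 66.4 and 69.6 CPM with FeCl3. With ZnO particles it had 67.7, 68.1 and 67.6 CPM and with ZnSO4 69.1, 63 and 56.8 CPM. Its control mean was carried by control replicate 1, which was above all other 14 libraries, and its L ran from -0.14 with ZnSO4 to -0.037 with ZnO particles.

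**Figure D5:**
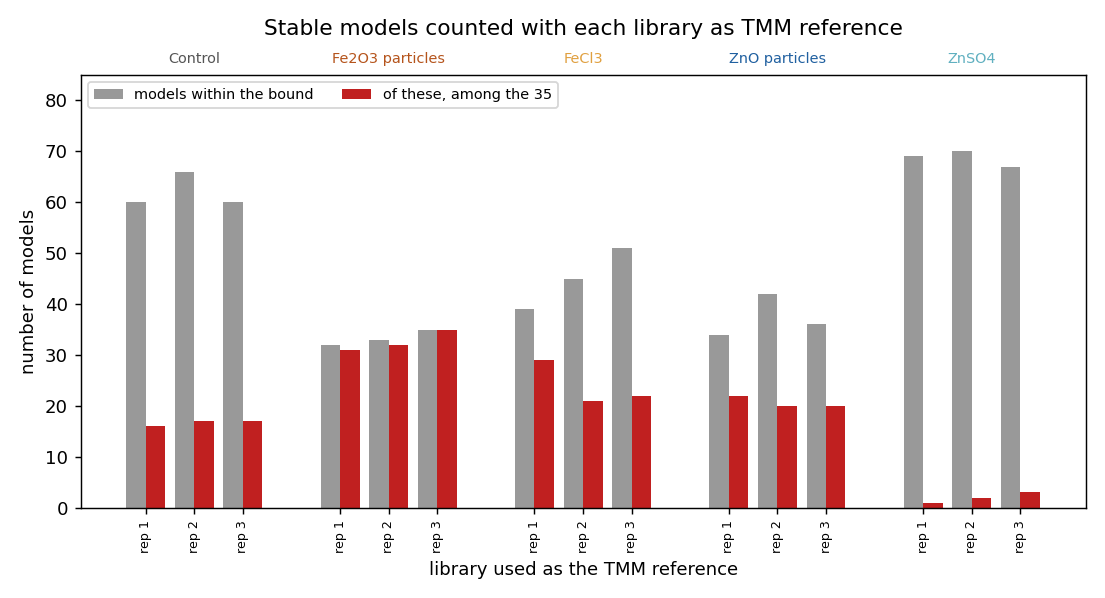
Number of models that met the rule (grey) and how many of these were among the 35 (red), with each of the 15 libraries used as the TMM reference (horizontal axis). With ZnSO4 libraries as the reference 67 to 70 models met the rule and 1 to 3 of the 35 stayed; Fe2O3 particles replicate 3 is the reference edgeR chose.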

How the data were processed

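RNA of Micromonas commoda cultures was sequenced as 15 libraries after poly(A) selection, per the labels' protocols. Tools named in the submitters' processing notes are RSEM 1.3.0, STAR, Trim Galore 0.4.0 and CASAVA 2.17. Build and annotation were not given in the sources used here. Whole-number counts were what the authors deposited per gene model, not normalized, in 1 table whose name speaks of HTSeq, so the counting program is not settled. Members and settings were chosen with earlier results of these data known. TMM factors were computed on all 10300 rows for the choice of models. For tests (R 4.3.3, edgeR 4.0.16) filterByExpr with a minimum count of 10 kept 10012 models and TMM was computed again. All 5 groups entered 1 quasi-likelihood fit with group as the only term. P-values were adjusted over all 10012 models by the Benjamini-Hochberg method at 0.05, and each SE was derived from the log2 fold change and its F statistic. Intervals are 95% and not adjusted for multiple testing. DESeq2 1.42.0 was the other test. The steps were tested on simulated data. Printed identifiers were the 2 lowest in CV with average L above 0 and the 2 lowest with it below 0. Other members are described by their place (most abundant, widest spread, nearest the bound, called between exposures), and the one that met the rule under all references was singled out after its values were seen. Alternatives covered scaling, pseudocount, bound, filter, test, replicate block and leaving out each library. The TMM reference library, upper-quartile factors and leaving out libraries at fixed factors were added after seeing the data.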

Additional observations from a re-analysis of the deposited data

Results flagged for a closer look

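Of the 35 models, 7 differed between 2 exposures by a direct contrast in edgeR's quasi-likelihood test, although each lay within the bound of the same controls. Over all models tested 79.7% differed in at least 1 of these 4 comparisons. Between Fe2O3 particles and FeCl3 the log2 fold changes of the 4 models called were 0.34, 0.35, -0.38 and -0.32, with 55.3% of all models called. The second of these, the model at 63.5 CPM described above, also differed between ZnO particles and ZnSO4, by 0.32, with 43% of all models called. Between ZnO and Fe2O3 particles a model at 57.5 CPM differed by 0.33, with 19.2% of all models called. Between ZnSO4 and FeCl3 a model at 52.6 CPM differed by -0.37 and a model at 24.7 CPM by 0.34, with 53.1% of all models called. Of these 8 calls, the last was the only 1 that no single omitted library ended. Models were taken on the same libraries.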

How the results depend on the processing

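From 35 models with TMM, the number that met the rule was 53 with total counts only, 57 with L centred on the median model of each exposure and 72 with upper-quartile factors, with 0, 18 and 3 of the 35 among them. It was 4 at a bound of 0.1, 148 at 0.3 and 63 at a minimum mean of 5 CPM. DESeq2 size factors gave 41 with 27 of the 35 among them, and other pseudocounts or the mean of log2 CPM gave 34 to 42. As TMM reference, control replicates 1, 2 and 3 gave 60, 66 and 60, and ZnSO4 replicates 1, 2 and 3 gave 69, 70 and 67. Without 1 library it was 30 to 78, and 0 of the 35 stayed in all 15 cases. In the 5 cases where edgeR's reference changed, it was 73 without Fe2O3 particles replicate 3 (1 of the 35 stayed), 78 without FeCl3 replicate 1, 61 without ZnO particles replicate 1, 64 without ZnSO4 replicate 2 and 60 without ZnSO4 replicate 3. In the other 10 it was 30 to 40. At the factors of all 15 libraries it was 30 to 40 whichever library was left out, fewest of the 35 (17 to 21) stayed without a control library, and 4 of the 35 stayed in all 15 cases. Without both Fe2O3 particles replicate 3 and FeCl3 replicate 1 it was 84.

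Calls among the 35 against control became 8 with Fe2O3 particles, 7 with FeCl3, 25 with ZnO particles and 33 with ZnSO4 under total counts only. The same scaling gave 5 between the particles, 10 between the salts and 31 over all 5 groups. DESeq2 size factors in edgeR gave 1 with ZnO particles against control and 0 between ZnO particles and ZnSO4. DESeq2's own test gave 1 with ZnO particles and 2 with ZnSO4 against control, 0 between ZnO particles and ZnSO4, 2 between the particles and 5 over all groups. At an adjusted p of 0.01 it was 1 between Fe2O3 particles and FeCl3 and 0 in the other direct comparisons and over all groups. Without 1 library the calls against control were 0 to 2 with Fe2O3 particles, 0 with FeCl3, 0 to 3 with ZnO particles and 0 to 7 with ZnSO4. They were 1 to 5 between Fe2O3 particles and FeCl3, 0 to 2 between ZnO particles and ZnSO4, 0 to 2 between the particles, 1 to 8 between the salts and 1 to 10 over all groups, the upper ends of 7, 8 and 10 being without Fe2O3 particles replicate 3. The largest absolute L of the 4 printed models, 0.06 to 0.19 with all libraries, was 0.49 to 0.68 with total counts only.

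The labels do not say what a replicate number stands for. Same-numbered libraries of different groups deviated together in 18 of 30 pairs (correlation over 0.1, range -0.52 to 0.72). Pairs over 0.1 were counted for same-numbered libraries only. Their median correlation was 0.20, against -0.075 for different numbers, whose range was wider, from -0.65 to 0.79. Of 15 libraries, 10 correlated best with their own number. Whether same-numbered libraries share a factor was not tested. With the replicate number as a block the number of calls was the same in each comparison except over all groups, with 3 in place of 2. The models called were the same in the direct comparisons except for Fe2O3 particles against FeCl3, where 3 of 4 were shared.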
